A study of Mus musculus with 8 samples.

Results

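The genes described here were the collagen chain genes, the 44 of 20275 gene symbols in the count tables that consist of Col, a number, the letter a and a number. Membership was decided by the symbol alone. All 44 had a gene model in the GENCODE mouse annotation (GRCm38), and 30 were listed for every plate. Single cells of orthotopic mouse colon tumours, grown from grafted tumour organoids, were sorted into 384-well plates and their messenger RNA was counted at the 3′ end with molecular barcodes (SORT-seq). Each plate held the cells of 1 mouse, with 4 FibCtrl and 4 FibΔZeb1 plates, the latter labelled Fib-Del. Mice of both groups carried floxed Zeb1 alleles and received a tamoxifen diet, and only the FibΔZeb1 hosts carried a tamoxifen-inducible Cre transgene, so that the grafted tumour cells had no Cre from the host. The labels name this transgene Col1a1Cre-ERT2, whereas the methods of the study name a Col1a2-driven CreERT2, and either driver is the promoter of a collagen gene that is itself described here. The comparison therefore was between hosts with and without a Cre driven from a collagen promoter, in cells that use such promoters. Ages of the mice were not given beyond that littermates were matched, and plates are named below by group and replicate number.

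Collagens are trimers of chains with long glycine-rich repeats that wind into a triple helix, and each chain has its own gene. Chains of types I, III and V form the fibrils of the interstitium, type IV forms the network of basement membranes, type VI forms beaded filaments, and types VIII and X form hexagonal networks. Fibril-associated chains such as those of types XII, XIV and XVI decorate fibrils, and the multiplexins, types XV and XVIII, lie at the border of basement membranes. In tumours of the gut, fibroblasts are the main source of interstitial collagen, and ZEB1 is a zinc finger repressor of epithelial genes that binds E-box sequences.

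Wells were assigned to classes from marker genes after clustering, and no collagen gene took part in clustering, naming or subtype assignment. Of 3072 wells, 2051 held 500 or more transcripts and 1831 passed all filters. These included 149 fibroblast-like, 27 pericyte-like, 33 mesothelial-like, 388 epithelial-like and 766 immune-like wells of all immune classes, and 431 wells stayed unnamed. All 12 fibroblast markers were detected in the fibroblast-like wells, with summed levels of 25582 to 28946 CPM on the plates compared, where CPM is the cellular transcripts of a gene scaled to a plate or class total of 1000000, without spike-in and mitochondrial counts. The endothelial markers there summed to at most 6.94 CPM and the glial markers to at most 10.2 CPM, with Tie1, Sox10 and Cdh19 among the markers at 0. Plates held 981881 to 5905190 cellular transcripts, and the 5 plates with 10 or more fibroblast-like wells (FibCtrl 1 and 4, FibΔZeb1 1, 3 and 4) held 288291 to 1021530 transcripts in them. The other plates had 4, 9 and 6 fibroblast-like wells and are given as values only. Zeb1 itself measured 93.0, 0, 0 and 83.4 CPM in fibroblast-like wells of FibCtrl 1 to 4 and 43.7, 44.0, 48.0 and 27.7 CPM in those of FibΔZeb1 1 to 4. The 2 plates at 0 had few wells, where 3 transcripts would have read 37.0 and 41.0 CPM. On the 5 plates compared the 2 FibCtrl values lay above the 3 FibΔZeb1 values, with a log2 difference of -1.15 (SE 0.29) that did not pass (edgeR quasi-likelihood test with Benjamini-Hochberg adjustment, adjusted p = 0.472). The sources used here do not say which part of the gene is removed, so a 3′ count is no complete check of the deletion.

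Collagen transcripts were concentrated in fibroblast-like wells. These were 8.14% of the kept wells and held 55.5% of their collagen transcripts. A further 22.1% lay in 37 wells of the fibroblast clusters that were set aside because they held 2 or more transcripts of the immune gene Ptprc or the epithelial gene Epcam. The share of wells takes no account of depth or of the sort gates that filled the plates. Median depth was 18069 transcripts in fibroblast-like, 26653 in epithelial-like and 2757 in immune-like wells. Within fibroblast-like wells the 44 chains together made up 80045 ± 6307 CPM (SD, n = 5 plates), with single plates from 73118 to 87760 CPM. Because counting was at the 3′ end, a captured transcript gives 1 count whatever its length. Levels of different chains are set side by side on this scale, and differences between genes in capture or mapping were not checked.

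The fibril-forming chains dominated, with 82.5 ± 7.27% of the collagen transcripts of fibroblast-like wells (SD, n = 5). Col3a1, the single chain of type III fibrils, was the highest by its mean at 22676 ± 8791 CPM, followed by the 2 type I chains, Col1a2 at 20646 ± 1227 CPM and Col1a1 at 18693 ± 681 CPM. Their order was not firm, since the spread of Col3a1 over plates was larger than the gaps between the 3 means. Col1a1 and Col1a2 were the steadiest of the chains above 100 CPM, with plates from 18179 to 19703 CPM for Col1a1, while Col3a1 ran from 16005 to 37496 CPM. The type V chains, which take part in starting fibrils, followed at 2109 ± 438 CPM for Col5a2, 1449 ± 209 CPM for Col5a1 and 399 ± 150 CPM for Col5a3. These 3 levels were separate in their order on every plate compared.

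Beaded-filament chains held 8.08 ± 3.40% of the collagen transcripts, with Col6a2 at 2667 ± 1131 CPM, Col6a1 at 2576 ± 1062 CPM and Col6a3 at 1144 ± 603 CPM. Col6a1 and Col6a2 could not be told apart, with a ratio of 0.97 ± 0.05 (SD, n = 5). Basement membrane chains held 3.48 ± 2.43%, of which Col4a1 contributed 1735 ± 1315 CPM and Col4a2 1022 ± 721 CPM. Their ratio was steadier than either level, at 1.65 ± 0.16. Col15a1 reached 1565 ± 938 CPM and the hexagonal-network chain Col8a1 870 ± 364 CPM. The fibril-associated chains Col14a1, Col12a1 and Col16a1 measured 817 ± 400, 680 ± 280 and 263 ± 27.9 CPM. Col10a1, the short chain best known from growth-plate cartilage, averaged 387 ± 772 CPM with a median of 31.3 CPM, which shows how far 1 plate carried its mean. The remaining chains lay below 100 CPM by mean.

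Some chains that are built into the same trimer varied together from well to well. Over 109 fibroblast-like wells with 5000 or more transcripts on the 5 plates, the rank correlation within plates had a median of 0.95 for Col1a1 and Col1a2, 0.91 for Col6a1 and Col6a2 and 0.88 for Col4a1 and Col4a2, the 3 highest of 136 pairs, whose median was 0.21. Other trimer partners ranked lower, with Col5a1 and Col5a2 at 0.65, Col6a2 and Col6a3 at 0.59 and Col6a1 and Col6a3 at 0.58, below pairs of different types such as Col1a1 and Col5a1 at 0.78 and Col1a2 and Col6a1 at 0.70. The lowest pair was Col14a1 and Col15a1 at -0.54. Wells of 1 plate share a library, and these values are a description. Col4a1 and Col4a2 lie head to head on chromosome 8, and their annotated first exons overlap on opposite strands by 22 bases, chr8:11312805-11312826 (GRCm38.p6, RefSeq), shown on the plus strand as the stretch that joins both genes.
Col4a1 and Col4a2 shared start: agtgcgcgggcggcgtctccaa

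**Figure D1:**
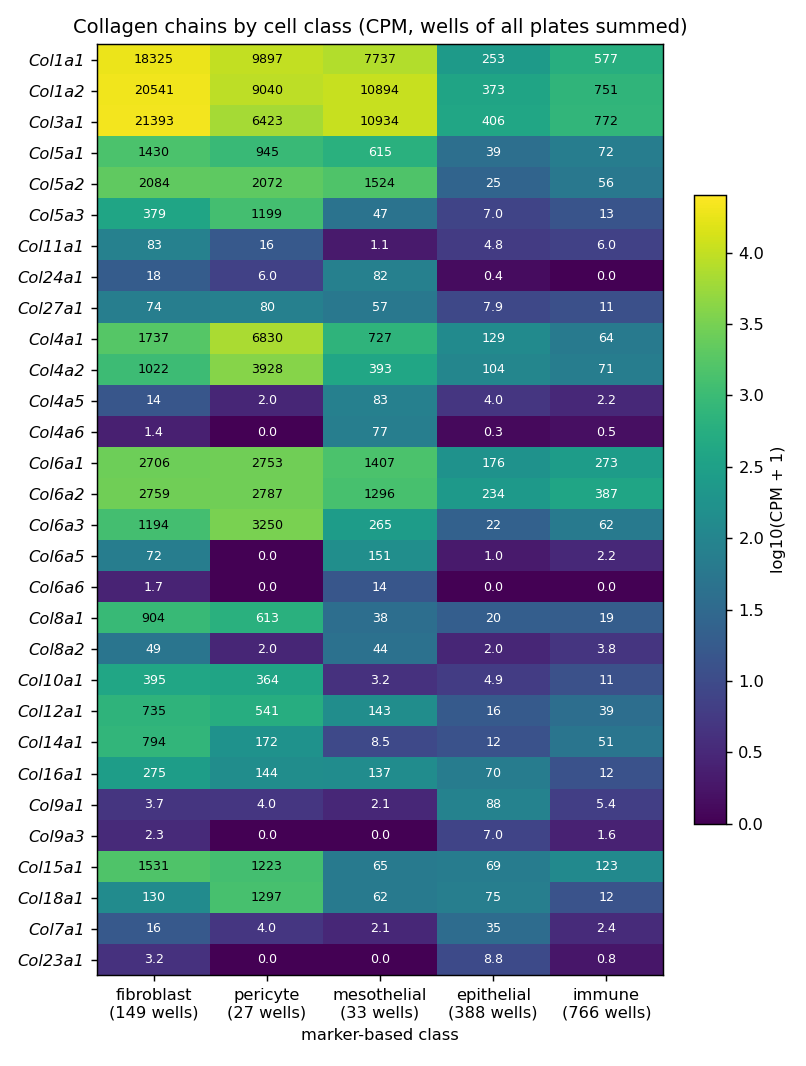
Level of collagen chains by marker-based cell class, as a colour scale of log10(CPM + 1) over the wells of all plates summed. Col3a1, Col1a2 and Col1a1 are highest in fibroblast-like wells, at 21393, 20541 and 18325 CPM, while Col4a1 and Col4a2 peak in pericyte-like wells and Col9a1 in epithelial-like wells.

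Of the chains, 19 had their highest pooled level in fibroblast-like wells, 10 in pericyte-like, 7 in epithelial-like, 6 in mesothelial-like and 1 in immune-like wells, and Col13a1 had no transcript in any of these classes. For 22 of these 43 chains the 95% exact Poisson interval of the highest class overlapped that of another class, so that only 21 were set apart by counting error, 10 of them in fibroblast-like, 5 in pericyte-like, 4 in mesothelial-like and 2 in epithelial-like wells. Col6a1, at 2753 CPM in pericyte-like and 2706 CPM in fibroblast-like wells, was not among them, and Col6a4 rested on 2 transcripts. Pericytes, the mural cells of small vessels, share a basement membrane with the endothelium. The study kept only CD31-negative cells when it sorted fibroblasts. No class was named endothelial here, so this ranking leaves out endothelial cells. Only FibΔZeb1 1 had 10 or more pericyte-like wells, so there was no replicate plate. In fibroblast-like wells basement membrane chains held 3.48 ± 2.43% of the collagen transcripts over 5 plates, and 6.90% on FibΔZeb1 1, the highest of them. In the 16 pericyte-like wells of FibΔZeb1 1 they held 24.5%. Col4a1 measured 6793 CPM (95% exact Poisson interval 6480 to 7117) beside 3659 CPM in the fibroblast-like wells of the same plate. Col4a2 measured 3933 CPM (3696 to 4181) beside 2027 CPM, and Col18a1, the precursor of endostatin, 1461 CPM (1318 to 1615) beside 21.8 CPM. The top chain of these pericyte-like wells was nevertheless Col1a1, at 8598 CPM (8246 to 8962), below the 18179 CPM of fibroblast-like wells. On FibCtrl 1, with 8 pericyte-like wells, Col1a2 led at 14685 CPM before Col1a1 at 12980 CPM, and Col18a1 measured 716 CPM. All intervals of this kind cover counting error only.

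Mesothelial-like wells, from cells that line the peritoneum, reached 10 wells on FibCtrl 3 alone, where there were 15. Their top chain was Col1a2 at 12394 CPM (12087 to 12706), followed by Col3a1 at 10819 CPM. The minor type IV chains Col4a5 and Col4a6 lie head to head on chromosome X, and both had similar levels here, at 62.0 CPM (42.1 to 88.0) and 60.0 CPM (40.5 to 85.7). Both were at 0 in the 9 fibroblast-like wells of that plate, where 3 transcripts would have read 41.0 CPM. Col24a1 at 78.0 CPM and Col6a5 at 260 CPM were likewise counted in mesothelial-like wells and at 0 in those fibroblast-like wells. In fibroblast-like wells of the other plates Col6a5 ran from 0 to 907 CPM. Col15a1 was low, at 30.0 CPM (16.8 to 49.5) beside 1769 CPM in the fibroblast-like wells. Col14a1 was at 0 in the mesothelial-like wells, with an upper limit of 7.4 CPM. It rested on 1 transcript, 13.7 CPM, in the fibroblast-like wells of that plate. By the subtypes defined below, those fibroblast-like wells were 8 contractile, 0 matrix and 1 tied.

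Immune-like wells were taken as a comparison level. Whether their counts came from the cells themselves or from free RNA was not tested. For the 17 chains named by level, immune-like wells held a median of 4.07% of the fibroblast level on the same plates, from 1.90% for Col8a1 to 13.2% for Col6a2. In immune-like wells the highest chain was Col3a1, at 665 CPM by mean. It was also the top chain of the macrophage-like (606 CPM), neutrophil-like (1052 CPM) and T cell-like (724 CPM) wells, whereas Col1a2 led in B cell-like wells (848 CPM). In NK or innate lymphoid-like wells Col3a1 led at 335 CPM on the only plate with 10 or more of them, FibΔZeb1 2, but on 10 transcripts, and over all plates Col1a1 had 61.0 transcripts and Col3a1 53. The immune classes were not alike for every chain, since Col14a1 averaged 83.9 ± 48.6 CPM in macrophage-like wells (SD, n = 6) and 25.3 ± 25.5 CPM in neutrophil-like wells (n = 7). The summed level of all chains in immune-like wells ran from 994 CPM on FibCtrl 3 to 6446 CPM on FibCtrl 1.

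Epithelial-like wells, in which cells of the graft and of the host were not told apart, held most chains at or below the immune-like level, with a median of 1.64% of the fibroblast level over the same 17 chains. CPM is a share of transcripts, and an epithelial-like well held a median of 26653 of them, an immune-like well 2757. As counts, Col3a1 had 5424 transcripts in 388 epithelial-like wells and 2843 in 766 immune-like wells. The part of depth in these levels was not tested. By CPM the top chain of epithelial-like wells was Col3a1 at 333 ± 297 CPM (SD, n = 8), below the immune-like level on every plate. A small group stood above it. Col9a1, a chain of fibril-associated type IX, measured 125, 21.5, 187 and 57.5 CPM on FibCtrl 1 to 4 and 94.0, 20.3, 60.3 and 96.5 CPM on FibΔZeb1 1 to 4. The immune-like wells of the same plates held 0 to 12.3 CPM, so that the 2 classes did not overlap. Col7a1, which forms the anchoring fibrils beneath epithelia, measured 10.9, 77.0, 76.7 and 26.1 CPM on FibCtrl 1 to 4 and 12.4, 50.5, 55.5 and 14.0 CPM on FibΔZeb1 1 to 4, against 0 to 4.7 CPM in immune-like wells. Col16a1 at 26.9 to 139 CPM lay above the 0 to 22.1 CPM of immune-like wells. Col18a1, a basement membrane proteoglycan core, averaged 82.2 ± 67.8 CPM and was above the immune-like level on every plate but FibCtrl 1, where it was 7.2 against 18.5 CPM. Col4a1 was above the immune-like level of the same plate on every plate, at 65.7 to 190 CPM against 9.3 to 149 CPM. Col4a2 was too, at 54.7 to 177 CPM against 18.7 to 138 CPM, though the ranges over plates overlapped for both chains. After each well was thinned to 1000 transcripts, Col9a1 was counted in 7.25% of 386 epithelial-like wells (95% exact binomial interval 4.87 to 10.3%) and in 0.82% of 728 immune-like wells (0.30 to 1.79%). Before thinning the shares were 49.7% and 2.61%, at median depths of 26653 and 2757 transcripts per well.

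Within the epithelial-like wells these chains did not all go together. The cluster led by Tgm3 and Bpifb5 had a median of 93.7 CPM of Col9a1 over 7 plates, and the cluster led by Reg4 and Retnlb, genes of secretory cells, had 8.12 CPM over 6 plates, with ranges of 36.8 to 211 CPM and 0 to 29.1 CPM that did not overlap. Col16a1 had the same order, at 60.3 and 15.2 CPM. The medians of Col7a1 and Col18a1 had the opposite order, at 18.5 and 36.4 CPM in the first cluster and 92.0 and 251 CPM in the second, but their plates overlapped. Col7a1 ran from 0 to 94.7 CPM in the first and from 12.9 to 321 CPM in the second, and Col18a1 from 13.2 to 119 CPM and from 32.3 to 327 CPM. These are pooled values per cluster and plate, given without a test.

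**Figure D2:**
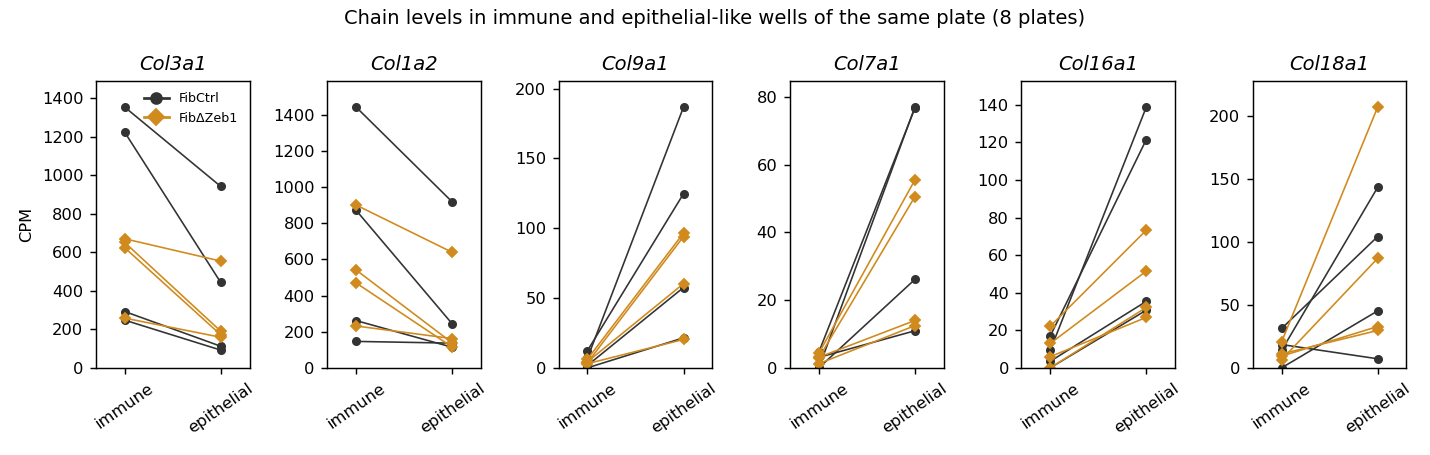
Level of 6 chains in immune-like and epithelial-like wells, in CPM, with a line joining the 2 classes of each plate (circles FibCtrl, diamonds FibΔZeb1). Col9a1 lies at 20.3 to 187 CPM in epithelial-like wells and at 0 to 12.3 CPM in immune-like wells, whereas Col3a1 is lower in epithelial-like wells on all 8 plates.

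Contractile and matrix fibroblasts were compared next. A fibroblast-like well was called contractile where the transcripts of the actin-associated genes Tagln and Acta2 together outnumbered those of Dpt and Lum, which encode proteins of the collagen matrix, and matrix where the reverse held. There were 73 contractile, 69 matrix and 7 tied wells, with 20 tied or within 2-fold of the boundary. Contractile wells numbered 21, 1, 8 and 5 on FibCtrl 1 to 4 and 20, 2, 8 and 8 on FibΔZeb1 1 to 4. Matrix wells numbered 23, 2, 0 and 21 on FibCtrl 1 to 4 and 3, 3, 8 and 9 on FibΔZeb1 1 to 4. The 4 plates with 5 or more wells of each, FibCtrl 1 and 4 and FibΔZeb1 3 and 4, entered the test, with the plate as a block. The 4 defining genes were left out. Both subtypes were split by measured markers of the same wells, and the p-values speak only of differences that go with those markers over the plates.

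Total collagen did not have the same order on every plate, and its difference between subtypes was not tested. Contractile wells held 85537, 64649, 50299 and 34965 CPM on FibCtrl 1, FibCtrl 4, FibΔZeb1 3 and FibΔZeb1 4, and matrix wells of the same plates held 62372, 90248, 91535 and 94488 CPM. The contractile level was the higher on FibCtrl 1 and the lower on the other 3 plates. Single chains were tested. Of the 44 chains, 22 passed the filter on low counts, 3 were higher in contractile wells and 3 were lower, at an adjusted p under 0.05. Among all 6292 genes tested 5.01% were called, 1.68% higher and 3.32% lower. The median log2 difference, contractile over matrix, was 0.05 over the 22 chains and -0.03 over all genes tested.

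The 250 bases before the RefSeq transcription start are shown for the 5 of these 6 chains that the promoter table holds, because their transcripts moved with the subtype. Capitals mark a match to CAGGTG, an E-box of the kind ZEB1 binds, or to the TATA box letters TATAAA, on either strand, with coordinates on GRCm38.p6 and each sequence written 5′ to 3′ along its gene.
Col8a1 (chr16:57754738-57754987, minus strand): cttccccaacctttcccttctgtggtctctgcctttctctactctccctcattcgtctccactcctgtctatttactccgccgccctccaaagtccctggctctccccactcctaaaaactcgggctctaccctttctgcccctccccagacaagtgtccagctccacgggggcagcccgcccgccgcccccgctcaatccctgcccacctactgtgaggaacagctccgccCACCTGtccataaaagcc
Col10a1 (chr10:34389731-34389980, plus strand): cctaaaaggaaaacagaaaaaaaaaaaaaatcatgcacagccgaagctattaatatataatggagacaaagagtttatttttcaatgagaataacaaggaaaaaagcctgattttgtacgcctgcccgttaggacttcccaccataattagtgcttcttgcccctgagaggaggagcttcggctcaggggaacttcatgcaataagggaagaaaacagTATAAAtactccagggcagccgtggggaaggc
Col15a1 (chr4:47207762-47208011, plus strand): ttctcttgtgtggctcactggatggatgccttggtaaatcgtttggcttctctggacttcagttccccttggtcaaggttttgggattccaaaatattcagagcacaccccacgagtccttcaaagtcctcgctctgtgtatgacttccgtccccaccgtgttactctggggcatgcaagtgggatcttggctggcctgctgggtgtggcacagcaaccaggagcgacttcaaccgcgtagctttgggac
Col3a1 (chr1:45311288-45311537, plus strand): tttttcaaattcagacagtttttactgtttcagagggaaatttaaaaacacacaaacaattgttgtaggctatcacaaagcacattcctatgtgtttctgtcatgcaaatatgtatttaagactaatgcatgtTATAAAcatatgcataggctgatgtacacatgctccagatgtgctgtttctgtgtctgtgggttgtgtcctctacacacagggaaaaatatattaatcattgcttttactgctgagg
Col6a5 (chr9:105960644-105960893, minus strand): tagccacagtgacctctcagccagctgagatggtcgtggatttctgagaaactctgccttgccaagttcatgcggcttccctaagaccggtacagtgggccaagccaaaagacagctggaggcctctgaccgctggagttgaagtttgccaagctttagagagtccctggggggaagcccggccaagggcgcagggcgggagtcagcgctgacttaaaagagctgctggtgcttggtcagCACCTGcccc
The table lists 27025 promoters, and 17.1% held CAGGTG, 9.91% held CAGGTA, 34.5% held CCAAT and 13.0% held TATAAA in this window on either strand. Of the 35 collagen promoters 4 held CAGGTG (Col4a4, Col6a5, Col8a1 and Col16a1), 1 held CAGGTA (Col17a1), 12 held CCAAT and 5 held TATAAA. The CAGGTG matches of Col8a1 and Col6a5 begin 18 and 10 bases before the start, in chains that differed in opposite directions. The TATAAA of Col10a1 begins 32 bases before the start, that of Col3a1 begins 117 bases before it, and the window of Col15a1 held none of the 4 motifs. A match is a description of letters and not a bound site.

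The hexagonal-network chain Col8a1 (chromosome 16, 57624258 to 57754737) separated the subtypes most firmly. It measured 2472, 2126, 2557 and 2343 CPM in contractile wells of FibCtrl 1, FibCtrl 4, FibΔZeb1 3 and FibΔZeb1 4, against 121, 177, 258 and 5.30 CPM in their matrix wells. Contractile and matrix values did not overlap, and the difference was 4.31 on the log2 scale (SE 0.55, adjusted p = 0.000133, edgeR quasi-likelihood test with Benjamini-Hochberg adjustment). After thinning to 1000 transcripts Col8a1 was counted in 62.3% of contractile wells (49.8 to 73.7%), 11.6% of matrix wells (5.14 to 21.6%) and 1.79% of immune-like wells (0.95 to 3.03%).

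Col10a1 (chromosome 10, 34389981 to 34397085), of the same network family, was counted at 10.5, 0, 678 and 90.5 CPM in contractile wells and at 3.79, 0, 0 and 0 CPM in matrix wells, in the same order of plates. It was absent from both subtypes on FibCtrl 4. Summed over the 4 plates these were 88 and 2 transcripts, a ratio of 105 once divided by the total of each subtype (95% interval 28.1 to 877 from counting alone), and the fitted difference was 6.43 (SE 1.07, adjusted p = 0.00178, edgeR with Benjamini-Hochberg adjustment). Of 17 alternatives 10 kept the call. It was lost with DESeq2 and with a minimum of 3 wells per plate and subtype (adjusted p up to 0.583), and the chain was not tested in 5 others, among them those without FibΔZeb1 3 and without FibΔZeb1 4. The transcripts also sat in few wells. On FibΔZeb1 3, which gave most of the counts tested, 6 of 17 fibroblast-like wells held 75.3 Col10a1 transcripts and 1 well held 57.4% of them. On FibΔZeb1 1, which lacked enough matrix wells to enter the test, 18 of 23 fibroblast-like wells held 1212 Col10a1 transcripts and 1 well held 46.5% of them.

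The multiplexin Col15a1 (chromosome 4, 47208161 to 47313167) measured 2166, 1961, 4242 and 1846 CPM in contractile wells and 446, 150, 1338 and 1244 CPM in matrix wells. It was higher in contractile wells on each of the 4 plates, by 2.00 on the log2 scale (SE 0.45, adjusted p = 0.0128, edgeR with Benjamini-Hochberg adjustment). The call was lost without FibCtrl 1, without FibCtrl 4 and in 3 other alternatives, with an adjusted p of at most 0.241. With Col8a1 it was 1 of 2 chains higher on every plate, as were 9.98% of all genes tested.

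Col3a1 (chromosome 1, 45311538 to 45349706) was the most abundant chain to differ. It measured 10903, 12758, 4337 and 4816 CPM in contractile wells and 20811, 40158, 26503 and 30917 CPM in matrix wells. All 4 matrix values lay above all 4 contractile values, and the difference was -2.03 (SE 0.39, adjusted p = 0.00414, edgeR with Benjamini-Hochberg adjustment). The adjusted p rose to 0.925 at most and the call was lost without FibΔZeb1 4, with classes set from marker sums and with wells thinned to 5000 transcripts. The type I chains with which type III builds mixed fibrils did not pass. Col1a1 differed by -0.49 (95% interval -1.29 to 0.30) and Col1a2 by -0.43 (-1.18 to 0.31). The ratio of Col3a1 to Col1a1 was accordingly 0.54 ± 0.11 in contractile wells (SD, n = 6 plates with 5 or more wells) and 1.54 ± 0.35 in matrix wells (n = 4). Its ranges, 0.42 to 0.70 and 1.24 to 2.02, did not overlap.

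Col14a1 (chromosome 15, 55307750 to 55520803), which binds to fibril surfaces, measured 543, 44.4, 45.6 and 242 CPM in contractile wells and 1286, 1510, 1048 and 914 CPM in matrix wells. The groups did not overlap, and the difference was -2.88 (SE 0.54, adjusted p = 0.00334, edgeR with Benjamini-Hochberg adjustment). With Col3a1 and Col18a1 it was 1 of 3 chains lower on every plate, as were 12.4% of all genes tested. Thinning to 5000 transcripts and classes from marker sums each ended this call, with an adjusted p of 0.309 at most. Col6a5 (chromosome 9, 105856078 to 105960643), an alternative chain of type VI, measured 2.10, 0, 0 and 20.1 CPM in contractile wells and 255, 28.7, 0 and 31.8 CPM in matrix wells. Its counts were 3 against 159 transcripts, a ratio of 22.3 of matrix over contractile wells once divided by their totals (7.49 to 109 from counting alone). FibCtrl 1 matrix wells carried most of them, and on FibΔZeb1 3 neither subtype held any. The fitted difference was -4.83 (SE 0.996, adjusted p = 0.00789, edgeR with Benjamini-Hochberg adjustment), and 9 of 17 alternatives kept the call. It was lost with DESeq2 (adjusted p = 0.844), and the chain was not tested in 7 others, among them that without FibCtrl 1.

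The other 16 tested chains did not pass. Among them were the 3 main type VI chains, at -0.27 for Col6a1, -0.74 for Col6a2 and 0.12 for Col6a3, and the type V chains, at 0.18 for Col5a2, -0.48 for Col5a1 and -0.01 for Col5a3. Col4a1 differed by 1.01 (95% interval 0.04 to 1.98, adjusted p = 0.353) and Col4a2 by 0.87 (0.05 to 1.68, adjusted p = 0.344). Col12a1, which also binds fibrils, differed by 0.89 (0.06 to 1.72, adjusted p = 0.336) and Col16a1 by 0.39 (-0.23 to 1.003), all with edgeR and Benjamini-Hochberg adjustment.

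Several measures moved with the split. Contractile wells held a median of 11891 transcripts and matrix wells 23175. Fibroblast markers summed to 17296 to 28834 CPM in contractile and 26404 to 36302 CPM in matrix wells, with all 12 detected in each. Pericyte markers, 6 of 6 detected in both, summed to 352 to 884 CPM in contractile and 26.5 to 155 CPM in matrix wells. Smooth muscle markers, 6 of 6 and 5 of 6 detected with Synpo2 at 0 in matrix wells, summed to 300 to 744 CPM and 76.5 to 235 CPM. Epithelial markers, 7 of 7 detected in both, were higher in contractile wells of each plate tested, at 210, 281, 219 and 181 CPM against 153, 89.2, 49.1 and 117 CPM. Mesothelial markers, 5 of 6 and 3 of 6 detected, were lower there, at 79.7, 74.0, 128 and 50.2 CPM against 129, 143, 208 and 462 CPM. The part of these markers in the chain differences was not tested. With wells thinned to 5000 transcripts only 2 plates and 956 genes were left to test, and Col8a1 alone kept its call, at 4.19. The tested others kept their direction at similar size, Col15a1 at 2.34, Col14a1 at -2.45 and Col3a1 at -1.56, while Col10a1 and Col6a5 were not tested.

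**Figure D3:**
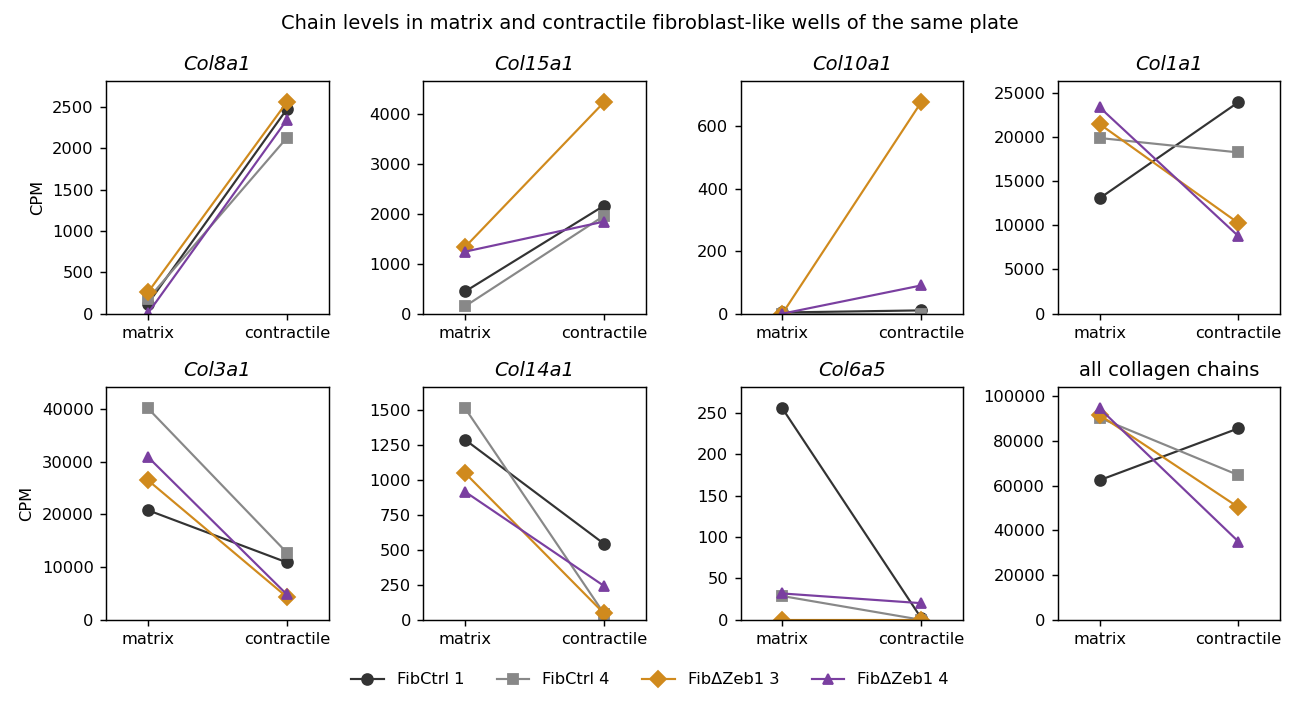
Level in CPM of the 6 chains that differed between subtypes, of Col1a1 and of all chains summed, with a line per plate joining its matrix and contractile wells. Col8a1 lies at 5.30 to 258 CPM in matrix and 2126 to 2557 CPM in contractile wells, and Col3a1 is lower in contractile wells on all 4 plates.

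**Figure D4:**
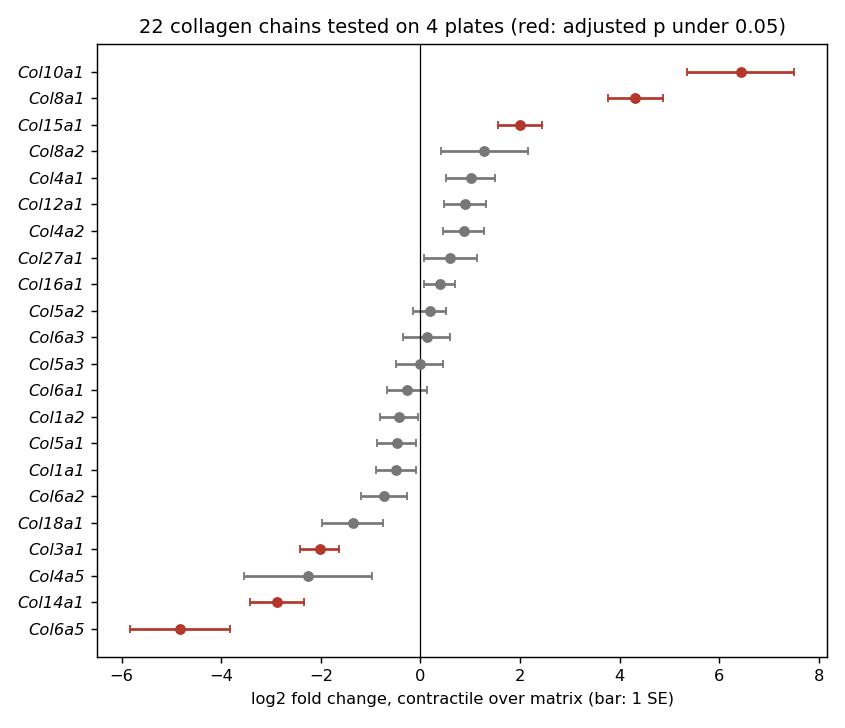
Log2 difference of the 22 tested chains, contractile over matrix wells on 4 plates, with bars of 1 SE to either side. Red points mark the 6 chains with an adjusted p under 0.05, and Col10a1 at 6.43 and Col6a5 at -4.83 are the ends of the range.

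Genes that modify, cross-link or bind collagen were taken from lists. Of 33 genes for biosynthesis and processing 24 were tested, 1 rose in contractile wells and 2 fell, with a median difference of -0.29, beside 1.68% and 3.32% of all genes tested. Loxl3, a lysyl oxidase that cross-links collagen, measured 492, 178, 247 and 241 CPM in contractile and 77.7, 68.5, 44.7 and 31.8 CPM in matrix wells, a difference of 2.30 (SE 0.36, adjusted p = 0.000816, edgeR with Benjamini-Hochberg adjustment, lost when wells were thinned). Pcolce2, an enhancer of procollagen cleavage, fell by 2.97 (adjusted p = 0.00489, edgeR, lost without the plate as a block and with classes from marker sums, and not tested when thinned) and the lysyl oxidase Loxl1 fell by 1.29 (adjusted p = 0.0244, edgeR, lost in 5 of 17 alternatives). The lysyl oxidases Loxl3 and Loxl1 were thus called in opposite directions, and the others on the list, Lox, Loxl2 and Loxl4, were not called. Of 11 receptor and uptake genes 7 were tested, 2 rose and 1 fell, with a median of 0.92. These were the collagen-binding integrin chain Itga1 at 3.33 (adjusted p = 0.0268, edgeR, not tested in 6 of 17 alternatives), the uptake receptor Mrc2 at 1.13 (adjusted p = 0.0427, edgeR, lost in 8 of 17 alternatives) and the fibrillar collagen receptor Ddr2 at -1.62 (adjusted p = 0.0074, edgeR, lost without FibCtrl 1).

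Genotypes were compared over all fibroblast-like wells of FibCtrl 1 and 4 against FibΔZeb1 1, 3 and 4, to ask whether collagen transcripts differ between them. Total collagen was 73118 and 87760 CPM in FibCtrl and 82648, 82772 and 73930 CPM in FibΔZeb1. The means of 80439 ± 10354 (SD, n = 2) and 79783 ± 5069 CPM (n = 3) differed by -656 CPM, less than the spread of either group (exact permutation test, two-sided, p = 1, where 0.1 is the smallest p this design allows). The difference had opposite signs on the 2 flow cells, at 9530 CPM for replicates 1 and -9410 CPM for replicate 4 of FibCtrl against replicates 3 and 4 of FibΔZeb1. Each flow cell held too few plates for a test.

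No collagen chain passed in this comparison. Of 44 chains 25 were tested, 0 were called with edgeR and 6 had an unadjusted p under 0.05, and DESeq2 called 0, with 5 under that unadjusted p. Among all 8235 genes tested 0.0121% were called, which was 1 gene, and 5.99% had an unadjusted p under 0.05 with edgeR and 4.27% with DESeq2. The type I chains sat close together in both groups, whereas Col3a1 was spread widely within FibCtrl. Col1a1 was 18181 and 19703 CPM in FibCtrl and 18179, 19093 and 18309 CPM in FibΔZeb1, with a 95% interval of the log2 difference, FibΔZeb1 over FibCtrl, of -0.65 to 0.51. For Col1a2 that interval was -0.67 to 0.51. Col3a1 was 16055 and 37496 CPM in FibCtrl and 16005, 21923 and 21902 CPM in FibΔZeb1, with an interval of -1.27 to 0.36.

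Type IV chains of basement membranes lay apart between the groups without passing. Col4a1 (chromosome 8, 11198423 to 11312826) measured 1021 and 243 CPM in FibCtrl and 3659, 2342 and 1410 CPM in FibΔZeb1, and the 2 groups did not overlap. The log2 difference was 1.91 (SE 0.65, adjusted p = 0.727, edgeR quasi-likelihood test with Benjamini-Hochberg adjustment). Col4a2 (chromosome 8, 11312805 to 11449287) measured 574 and 160 CPM in FibCtrl and 2027, 1374 and 975 CPM in FibΔZeb1, a difference of 1.94 (SE 0.57, adjusted p = 0.663, edgeR). Both were above their FibCtrl counterpart within each flow cell, by 1.84 and 2.95 for Col4a1 and by 1.82 and 2.88 for Col4a2. The plates under 10 wells went against this order for FibCtrl, with 3252 CPM of Col4a1 on FibCtrl 2 and 1234 CPM on FibCtrl 3, beside 3485 CPM on FibΔZeb1 2.

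In all 6 chains were higher without overlap in FibΔZeb1 (Col4a1, Col4a2, Col4a5, Col8a2, Col10a1 and Col15a1), as were 11% of all genes tested, and 1, Col14a1, was lower, as were 9.18%. Col15a1 measured 1252 and 326 CPM in FibCtrl and 2890, 1907 and 1452 CPM in FibΔZeb1, a difference of 1.35 (SE 0.58, adjusted p = 0.82, edgeR). Col10a1 measured 6.85 and 0 CPM in FibCtrl and 1765, 134 and 31.3 CPM in FibΔZeb1 (log2 difference 7.25, SE 1.99, adjusted p = 0.602, edgeR). FibCtrl 3, with 9 wells, held 397 CPM of Col10a1. Col14a1 measured 929 and 1368 CPM in FibCtrl and 264, 842 and 682 CPM in FibΔZeb1, a difference of -0.98 (SE 0.47, adjusted p = 0.84, edgeR). The median difference over the 25 chains was 0.29 and over all genes tested it was -0.0024. Adjusted for the flow cell, Col10a1 alone passed.

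The mix of subtypes varied between these plates, the genotypes overlapped in it, and it was not tested. Contractile wells were 47.7% and 19.2% of assigned wells in FibCtrl 1 and 4 and 87.0, 50.0 and 47.1% in FibΔZeb1 1, 3 and 4. Smooth muscle markers, 6 of 6 detected, summed to 192 and 130 CPM in FibCtrl 1 and 4 and 553, 278 and 247 CPM in FibΔZeb1 1, 3 and 4. Mesothelial markers, 5 of 6 detected with Lrrn4 at 0, summed to 104 and 137 CPM against 140, 191 and 320 CPM. Neither list overlapped between the groups, and Col4a5, highest by class in mesothelial-like wells, was 1.96 and 8.63 CPM against 13.1, 28.4 and 38.2 CPM. Fibroblast markers were lower in FibΔZeb1 without overlap, at 28848 and 28946 CPM against 28830, 25851 and 25582 CPM. Pericyte markers overlapped, at 348 and 200 CPM against 656, 188 and 139 CPM. The part of these markers in the chain values was not tested. Genotype was also compared within a subtype, a comparison added after the data had been seen. In matrix wells Col4a1 measured 254 and 200 CPM on FibCtrl 1 and 4 and 2218 and 1613 CPM on FibΔZeb1 3 and 4, a difference of 3.05 (SE 0.39, adjusted p = 0.0641, edgeR). Col4a2 measured 262 and 123 against 1336 and 1060 CPM (2.62, SE 0.46, adjusted p = 0.144, edgeR) and Col15a1 446 and 150 against 1338 and 1244 CPM (2.10, SE 0.53, adjusted p = 0.349, edgeR). Marker sums of the same matrix wells were apart as well, at 98.5 and 76.5 against 235 and 143 CPM for smooth muscle (5 of 6 detected), at 129 and 143 against 208 and 462 CPM for mesothelial (3 of 6) and at 114 and 155 against 33.5 and 26.5 CPM for pericyte markers (6 of 6). Their part was not tested. In contractile wells of FibCtrl 1, 3 and 4 and FibΔZeb1 1, 3 and 4 the Col4a1 values overlapped, at 1893, 1128 and 638 CPM against 4081, 2897 and 1027 CPM (1.06, SE 0.61, adjusted p = 0.999, edgeR). No chain was called within matrix wells, where 7 of 21 had an unadjusted p under 0.05, as did 6.64% of the 6773 genes tested there. None was called within contractile wells either, where 2 of 17 did, as did 2.55% of 1764 genes.

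Whether the genotype difference itself differed between subtypes was tested as an interaction on the 4 plates with both. With edgeR 0 of 22 chains passed and DESeq2 also called 0. Among all 6292 genes tested 0.0954% were called with edgeR. An unadjusted p under 0.05 was reached by 12 chains (54.5%) with either tool, as by 6.66% of all genes with edgeR and 3.04% with DESeq2. The fitted interaction was -2.37 (SE 0.66, adjusted p = 0.209, edgeR) for Col4a1 and -2.32 (SE 0.61, adjusted p = 0.151, edgeR) for Col6a3. Contractile wells of the 2 genotypes were spread over the clusters in different shares on these plates. On FibΔZeb1 3 and 4 each, 7 of 8 were in cluster 16, led by Ankrd1 and Inhba, while on FibCtrl 1 and 4 cluster 16 held 9 of 21 and 2 of 5. The part of that difference in the interaction was not tested. In contractile wells of cluster 16 alone, on FibCtrl 1 and 3 and FibΔZeb1 1, 3 and 4, 8 of the 17 chains named by level were lower in FibΔZeb1 without overlap, as were 7.88% of the 1586 genes compared, and 0 were higher without overlap, as were 17.8%. This count was made after the values were seen and has no test.

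**Figure D5:**
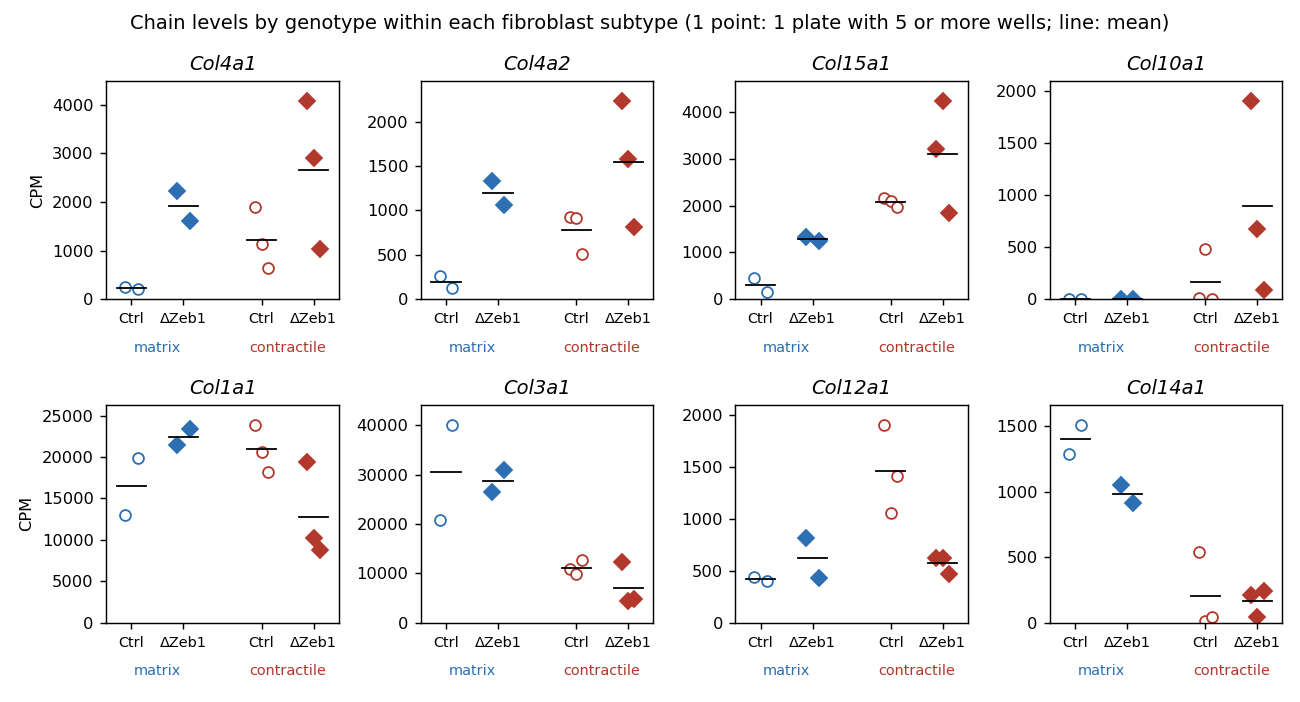
Level of 8 chains in CPM by genotype within matrix and within contractile wells, with a point per plate of 5 or more wells (open circles FibCtrl, filled diamonds FibΔZeb1) and a line at the mean. Col4a1 in matrix wells lies at 200 and 254 CPM in FibCtrl and at 1613 and 2218 CPM in FibΔZeb1.

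In epithelial-like wells 18 chains were tested over all 8 plates and 0 were called with edgeR, none with an unadjusted p under 0.05, and DESeq2 called 0. Among all 10290 genes tested 0% were called, with 178 at an unadjusted p under 0.05. Col9a1 differed by -0.54 (95% interval -1.74 to 0.66), Col7a1 by -0.50 (-1.82 to 0.82) and Col18a1 by 0.28 (-1.33 to 1.90) between the genotypes. These intervals leave room for differences of more than 2-fold in either direction for Col18a1.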

How the data were processed

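The deposited values were estimated counts of transcripts per gene and well, made from molecular barcodes and corrected by the authors' provider for barcode collisions. Reads had been aligned with BWA to the GRCm38 transcriptome, and the submitters' processing notes also name Cell Ranger 2.1.1. The counts were summed per plate and class, rounded for tests, and columns of all plates are named by the same 384 well positions. Wells under 500 transcripts, or over 3 median absolute deviations in mitochondrial share, were left out. Clusters (leidenalg 0.10.2, 2000 variable genes, 20 components, 15 neighbours) were built without collagen genes and named from marker lists, with a naming score of 0.5 and other naming limits set after the data had been seen. No doublet caller was run, and fibroblast-like wells with 2 or more Ptprc or Epcam transcripts were removed. Sort gates were not assigned to wells. The members and lists were chosen with earlier results of these data known. Tests used edgeR 4.0.16 (R 4.3.3) with trimmed-mean scaling, its low-count filter and Benjamini-Hochberg adjustment over all genes tested, at 0.05, and were tested on simulated data. DESeq2 1.42.0 was an alternative. Plates are mice, so p-values measure the spread between mice. Named with values were chains of 100 CPM or more by mean in fibroblast-like wells, the top chain of each class, chains past a test, the 3 pathway genes with the widest difference in each direction and Zeb1. Other chains named (Col4a5, Col4a6, Col5a3, Col6a5, Col7a1, Col8a2, Col9a1, Col18a1 and Col24a1 among them) were chosen after their values were seen. Flow cells (replicates 1 and 2, replicates 3 and 4) follow the run names. Intervals of single counts cover 95% of counting error.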

Additional observations from a re-analysis of the deposited data

Results flagged for a closer look

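In 72 groups of 4 plates, 1 value far from the other 3 was looked for in the levels of chains and of all chains summed, and 5 were found, where chance gives about 1 in 20 groups. In fibroblast-like wells of FibΔZeb1, Col1a1 was 13606 CPM on replicate 2, which had 6 such wells, and 18179 to 19093 CPM on the others. In epithelial-like wells the summed collagen level was 4607 CPM on FibCtrl 1 beside 955 to 1537 CPM on the other FibCtrl plates, and 3422 CPM on FibΔZeb1 1 beside 909 to 1335 CPM. Col3a1 in epithelial-like wells was 554 CPM on FibΔZeb1 1 beside 159 to 190 CPM. The same 2 plates had the highest summed collagen in immune-like wells, at 6446 and 4113 CPM, and the most fibroblast wells set aside for Ptprc or Epcam, 22 and 10. Col3a1 in immune-like wells was 258 CPM on FibΔZeb1 2 beside 623 to 670 CPM on the other FibΔZeb1 plates.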

How the results depend on the processing

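Over the alternatives the chain differences between subtypes had the same direction and side of the threshold in 341 of 389 comparisons, no longer passed in 30 and had the opposite sign in 18. For the genotype in fibroblast-like wells the chains named by level, Col4a5, Col6a5 and Zeb1 were followed. Here 340 of 371 comparisons were the same, 9 were newly past the threshold and 22 had the opposite sign. Col8a1 kept its subtype call in all 17 alternatives (adjusted p at most 0.0488, edgeR or DESeq2). The 6 chains called between subtypes became 1 with classes from marker sums, 1 with each well thinned to 5000 transcripts, both of which left 2 plates, and 3 without the plate as a replicate block, and 4 to 6 when 1 plate was left out. The 0 chains called for genotype became 1 with the flow cell as a covariate (Col10a1), 5 without the low-count filter (Col4a1, Col4a2, Col6a5, Col10a1 and Col15a1) and 3 with the replicate number as a block (Col4a1, Col4a2 and Col10a1), and stayed 0 when any 1 plate was left out. The replicate numbers were not taken as a pairing, since same-numbered plates correlated at 0.30 and 0.17 in fibroblast-like wells but as low as 0.08 in epithelial-like wells, where the block called 0 chains. For the interaction, the 0 called became 3 without the low-count filter and ranged from 0 to 2 with 1 plate left out. In epithelial-like wells all alternatives called 0 of 18 to 42 chains.

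The difference in total collagen, -656 CPM, became 8288 CPM with all plates, 4756 CPM with a minimum of 5 wells per plate, 7693 CPM without the mitochondrial filter and 3167 CPM with pericyte-like and mesothelial-like wells added. It ranged from -7977 to 6665 CPM with 1 plate left out, being 6665 CPM without FibCtrl 4 and 2270 CPM without FibΔZeb1 4.

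Chains whose log2 difference took the other sign were uncalled in the reported comparison. Between subtypes these were Col1a2 at 0.13 and Col5a3 at 0.069 with classes from marker sums, Col5a3 at 0.46 and Col6a1 at 0.096 after thinning, Col5a3 at 0.49 and Col6a1 at 0.32 with subtypes by cluster, and Col5a3 at 0.025 without the mitochondrial filter, 0.031 with total transcripts as the scale and 0.084 without wells near the boundary. Col6a3 was -0.026 with a minimum of 3 wells, -0.0032 without the low-count filter and -0.015 with Ptprc or Epcam wells kept. With 1 plate left out Col5a2 ranged from -0.057 to 0.31, Col5a3 from -0.59 to 0.46, Col6a1 from -0.61 to 0.16 and Col6a3 from -0.49 to 0.54. For the genotype, contractile wells alone gave Col5a1 -0.94, Col5a2 -0.15, Col5a3 -1.20, Col6a2 -0.016, Col6a3 -0.53 and Col8a1 -0.077. Matrix wells alone gave Col12a1 0.55, Col1a1 0.44, Col1a2 0.26 and Col8a1 -0.095. A minimum of 5 wells gave Col5a1 -0.11, Col5a2 -0.089, Col5a3 -0.011 and Col8a1 -0.68. Col5a1 was -0.028 with classes from marker sums, and Col1a2 was 0.056 and Col8a1 -0.38 without the mitochondrial filter. With 1 plate left out Col3a1 ranged from -0.92 to 0.28, Col6a1 from -0.044 to 1.25, Col8a1 from -0.45 to 1.31 and Col12a1 from -0.97 to 0.23. The cause was not tested. Depth limits chains near 10 CPM, about 3 transcripts on the shallowest plate compared.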

Other observations

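A gap between plates of unlike genotype appeared in the contractile wells of cluster 16, the fibroblast cluster led by Ankrd1, Inhba, Il33 and Ctgf. Its contractile wells held 79131 and 68693 CPM of collagen on FibCtrl 1 and 3 (9 and 7 wells) and 20483, 38637 and 17600 CPM on FibΔZeb1 1, 3 and 4 (6, 7 and 7 wells). Of the 17 chains named by level 8 were lower in FibΔZeb1 without overlap, namely Col1a1, Col1a2, Col3a1, Col5a1, Col5a2, Col6a2, Col6a3 and Col12a1, and 0 were higher without overlap. Over the 1586 genes compared in these wells 7.88% were lower and 17.8% higher without overlap. Col1a1 measured 16902 and 22298 CPM on the FibCtrl plates against 4750, 6555 and 2344 CPM. Col15a1 and Col8a1 overlapped, at 4944 and 1772 against 1164, 4019 and 1803 CPM for Col15a1. The summed fibroblast markers moved with this, at 24643 and 28502 CPM against 7985, 20925 and 11390 CPM. Mesothelial markers did too, at 198 and 139 against 22.4, 96.3 and 28.1 CPM. Smooth muscle markers summed to 113 and 735 CPM against 1727, 396 and 618 CPM, and macrophage markers to 28.2 and 119 CPM against 492, 53.5 and 112 CPM. The part of these markers was not tested. The wells were chosen after their values were seen, they hold few transcripts (medians of 2214 to 13631 per well), and no test was run.

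Col18a1 in fibroblast-like wells reached 3007 CPM on FibCtrl 2 and 1589 CPM on FibΔZeb1 2, with 4 and 6 wells, and 21.8 to 59.0 CPM on the other plates.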
